A study of Mus musculus with 8 samples.

Results

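The Zfp zinc finger genes detected in mouse oocytes were followed in 2 RNA pools, the non-polysomal (NP) and the polysomal (P) one. A gene was included when its symbol was Zfp followed only by digits and its mean over all 8 libraries was above 5 FPKM (fragments per kilobase of transcript, scaled to a fixed library size). The rule selected 99 of the 25574 genes listed and of the 340 rows with such a symbol. A further row that met the rule was left out and is not reported here. The genes were thus chosen by their mean FPKM over all libraries, so their levels are given as a description, and only the difference between P and NP was tested.

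The oocytes came from 8 weeks old CD1 mice injected with 5 IU of pregnant mare serum gonadotropin 46 h earlier, were isolated in 100 µM IBMX, which holds them in the germinal vesicle stage, and were cultured without it for 180 min. Those that had undergone nuclear envelope breakdown (NEBD), the first visible step of meiotic resumption, were chosen during this culture, so the libraries represent oocytes some time after NEBD. Cycloheximide, which arrests elongating ribosomes on their mRNA, was then added at 0.1 mg/ml for 10 min. Each profile was made from 200 pooled oocytes separated by SSP-profiling (scarce sample polysome profiling) on a sucrose gradient. The 4 NP libraries held the pooled light fractions and the 4 P libraries the pooled heavy ones, and both therefore share the same strain, hormone, inhibitor and cycloheximide treatment.

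C2H2 zinc finger proteins form the most numerous class of mammalian transcription factors. Each finger folds around a zinc ion held by a pair of cysteines and a pair of histidines, and consecutive fingers read DNA along a strand. Many members also carry a KRAB box, which recruits Trim28 and, through it, the histone H3 lysine 9 methyltransferase Setdb1 to silence transposable elements and imprinted regions. Other genes with a Zfp symbol have no such role and act on RNA, ribosomes, ubiquitin or the spindle. A fully grown oocyte is transcriptionally silent, so the mRNAs in the gradient were stored. Their presence in P or NP reports the part of the gradient in which they sedimented. According to the paper, NP holds stored particles of mRNA and protein beside ribosomal complexes. It could not exclude heavy stored particles among the polysomes, and it left out the top fraction of the gradient.

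The repeated unit of these genes can be read directly in their coding sequence. The 5 fingers shown here belong to members whose values are described below: the chromosome 7 neighbours Zfp108, Zfp109 and Zfp111, Zfp574, in which the NP and P libraries did not overlap, and Zfp296, which had the highest mean. Each run of 78 bases holds 1 finger and the linker that follows it, from the RefSeq annotation of GRCm38.p6, 5′ to 3′ on the coding strand. Capitals mark the codons of the 2 cysteines and 2 histidines that hold the zinc ion.
Zfp108, finger 1, chr7:24260832-24260909, plus strand: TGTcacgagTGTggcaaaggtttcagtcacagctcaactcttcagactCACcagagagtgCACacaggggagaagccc
Zfp109, finger 1, chr7:24229053-24229130, minus strand: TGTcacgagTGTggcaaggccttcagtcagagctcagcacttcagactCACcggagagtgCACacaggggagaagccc
Zfp111, finger 1, chr7:24199477-24199554, minus strand: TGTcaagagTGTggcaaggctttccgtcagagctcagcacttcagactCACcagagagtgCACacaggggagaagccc
Zfp574, finger 9, chr7:25081052-25081129, plus strand: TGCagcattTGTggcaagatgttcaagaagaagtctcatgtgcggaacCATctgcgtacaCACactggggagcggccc
Zfp296, finger 2, chr7:19579861-19579938, plus strand: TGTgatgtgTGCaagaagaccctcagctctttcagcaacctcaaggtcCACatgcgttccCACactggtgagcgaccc
Zfp109 and Zfp111 had the same base at 74 of the 78 positions, and Zfp108 shared 71 with either of them. Zfp574 and Zfp296 shared 40 positions with each other. Despite this likeness, none of Zfp108, Zfp109 and Zfp111 had exon sequence of at least 100 bp at 98% identity to the others.

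The libraries were small amplified samples, and the number to which each had been scaled was recovered from the steps between its FPKM values as 1299377 to 7594637 in NP and 2677946 to 4699328 in P, so that 1 step of a 1 kb gene was worth 0.132 to 0.770 FPKM. Since the cDNA was amplified without molecular identifiers, these steps are not independent molecules. Of the oocyte markers, 12 of 12 had a mean above 5, although Figla was at 1.12, 0, 0.889 and 3.44 FPKM in P1 to P4. Of 12 granulosa and cumulus markers, 3 had a mean above 1, Cyp19a1 (24.8 FPKM), Nr5a2 (18.7) and Kitl (1.63). Foxl2, Amhr2, Inhba and Has2 were at 0 in every library. The list summed to 15.3 to 94.4 FPKM in NP and 2.38 to 64.0 in P, values whose part in the results was not tested. Of the blood and immune genes, Cd68 measured 35.9 FPKM in NP1, and Hba-a1, Ptprc, Lyz2 and Cd74 were at 0 in all libraries.

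The Zfp genes passed the threshold about as often as other genes, 29.1% of the Zfp rows against 28.7% of all rows having a mean above 5 FPKM. Their means ran from 5.10 to 219 FPKM with a median of 13.998, against a median of 22.2 for the 7228 other genes above the threshold. Only 5 exceeded 100 FPKM, 39 exceeded 20 and 37 lay between 5 and 10. The last genes inside the threshold were Zfp263 at 5.20, Zfp345 at 5.16 and Zfp91 at 5.10 FPKM, and the first outside were Zfp110 at 4.88, Zfp41 at 4.80 and Zfp866 at 4.79 FPKM. Of the 241 rows below it, 48 were at 0 in every library and 85 had a mean above 1.

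Within the group, detection varied with the library. All of the genes were above 0 in NP4, whereas 2 were at 0 in each of the other NP libraries, and 5, 9, 6 and 10 were at 0 in P1 to P4. NP and P did not overlap in this count, and neither did the number of all genes above 0, which was 11703 to 13753 in NP and 9139 to 11339 in P. The number above 5 FPKM was 70, 76, 92 and 63 in NP1 to NP4 and 68, 59, 57 and 52 in P1 to P4, so the datasets overlapped, NP4 being below P1. Among all genes with a mean above 5, the share above 5 FPKM was lower in each P library (65.3% to 78.2%) than in each NP library (79.5% to 88.0%), without the overlap seen for the Zfp genes. The genes summed to 2654 to 3383 FPKM in NP and 2232 to 2789 in P, which was 0.443% to 0.775% and 0.350% to 0.715% of all FPKM. The plot of shares by library shows both the lower P counts and the 21 genes that had their highest value in NP3.

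**Figure D1:**
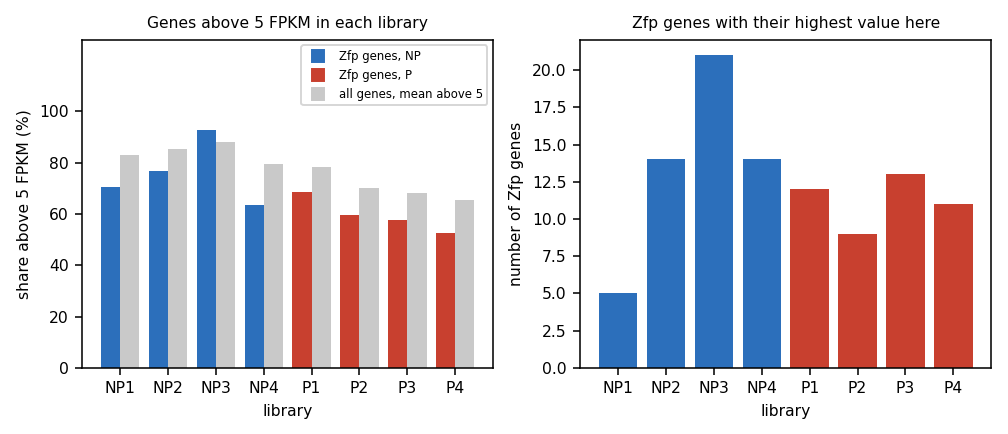
Left, share of genes above 5 FPKM in each library (percent) for the 99 Zfp genes (coloured bars, blue for NP and red for P) and for all genes with a mean above 5 (grey bars). Right, number of Zfp genes whose highest value fell in that library, from 5 in NP1 to 21 in NP3.

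Single libraries carried much of some means. Only 21 of the genes were above 5 FPKM in all 8 libraries, 23 were above it in 3 or fewer, and 17 (17.2%) drew over 50% of their summed FPKM from 1 library, compared with 14.6% of all genes with a mean above 5. Zfp612, a KRAB gene named after its values were seen, was listed at 42.8 FPKM in NP4 and at 0 in the other 7 libraries. Zfp954, chosen in the same way, measured 36.9 and 182 FPKM in P1 and P3, 6.93 in NP2 and 0.725 in NP4, and was at 0 in the remaining 4 libraries. Its log2 fold change of P over NP was the highest of the genes, 2.25 ± 1.54 (SE, n = 4 per dataset; adjusted p = 0.628 by limma). Zfp612 had a mean above 5 FPKM in NP only and Zfp954 in P only, so each was included through the dataset in which it was high. Since each library pooled many oocytes, fewer oocytes with a transcript and less of it in each oocyte cannot be told apart.

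The comparison of P with NP asked which mRNAs differed in FPKM between the polysomal and the non-polysomal pool. By limma on log2(FPKM + 1), 0 of the 99 genes passed an adjusted p of 0.1, where 0.021% of the 14292 genes tested did (3 genes), and the lowest adjusted p among the Zfp genes was 0.376. At an unadjusted p below 0.05, 12 genes were higher in NP, against a background of 9.47% of all genes tested and 10.8% of those with a mean above 5. None was higher in P at that level, the background being 0.476% and 0.71%. All 4 NP libraries lay above all 4 P libraries for 8 genes, where this held for 5.92% of all genes and 6.02% of those with a mean above 5, and the opposite held for 0 genes (0.357% and 0.6%). Mean FPKM was more than 2-fold higher in NP for 27 genes and in P for 15, against 40.6% and 16.9% of all genes tested and 27.3% and 14.2% of genes with a mean above 5. As shares of the Zfp genes these counts are 12.1% at an unadjusted p below 0.05 and 8.08% without overlap. The 2-fold counts are 27.3% in NP and 15.2% in P, and each share is close to that of genes with a mean above 5. The mean was above 5 FPKM in both datasets for 71 genes, in NP only for 17 and in P only for 11. The 17 and the 11 were thus included through the dataset in which their mean was high. At an unadjusted p below 0.05 were 7 of the 71 (9.86%), 5 of the 17 and 0 of the 11. The datasets did not overlap in 3 of the 71 (4.23%), 5 of the 17 and 0 of the 11.

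Their median log2 fold change was −0.56, compared with −0.39 over all genes tested and −0.53 over the other genes with a mean above 5, and 69 of the genes were below 0 and 30 above. That is a share of 69.7% below 0, against 71.4% of all genes tested and 70.1% of all genes with a mean above 5. The offset of all genes depended on the scaling, and so did this split. After quantile normalization the median was −0.04 (−0.02 over all genes) with 51 genes below 0 and 48 above, and after centring every library on its median it was 0.39 (0.57 over all genes) with 38 below and 61 above. The counts at an unadjusted p below 0.05 became 6 higher in NP and 1 higher in P with quantile normalization, and 2 and 6 with centring. Centring shifts every gene by the same amount, so the rank of a gene among the 14292 is the same with and without it, and this rank is given below beside the fold changes. In the ranked plot of the fold changes, the medians of the Zfp genes and of other genes almost coincide.

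**Figure D2:**
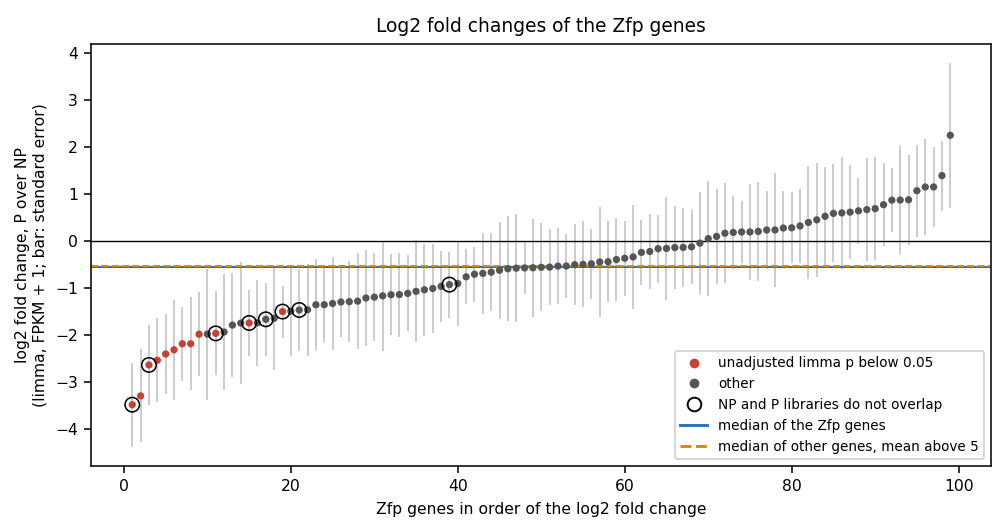
Log2 fold change of P over NP (limma on FPKM + 1, bars give the standard error) of the 99 Zfp genes in ascending order. Red points have an unadjusted p below 0.05 (12 genes), black circles mark the 8 genes whose NP and P libraries did not overlap, and the lines give the medians of the Zfp genes (−0.56) and of other genes with a mean above 5 (−0.53).

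**Figure D3:**
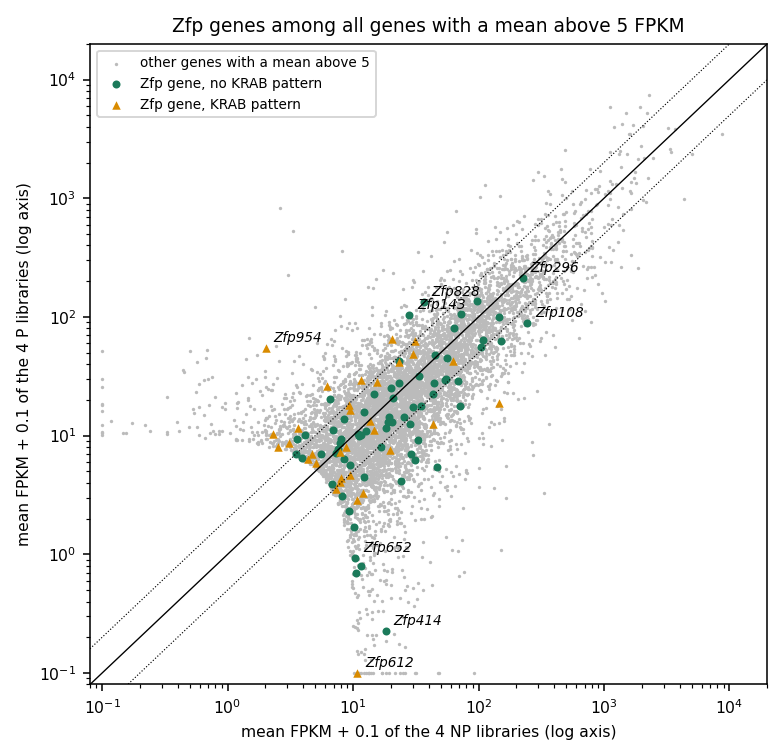
Mean FPKM of the 4 P libraries against the 4 NP libraries, both with 0.1 added and on log axes, for Zfp genes without (circles) and with (triangles) a KRAB pattern and for the other genes with a mean above 5 (grey). The solid line marks equality and the dotted lines 2-fold differences, beyond which 27 Zfp genes lay towards NP and 15 towards P.

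Among the most abundant genes, Zfp296 came first. It encodes a partner of the NuRD complex expressed in pluripotent and germ cells, and measured 125, 345, 141 and 289 FPKM in NP1 to NP4 and 294, 290, 228 and 44.9 in P1 to P4. The datasets overlapped fully, P4 alone being low. The mean was 225 ± 109 (SD, n = 4) in NP and 214 ± 117 in P, and the log2 fold change of −0.25 ± 0.68 (SE; adjusted p = 0.884 by limma) took the opposite sign under either scaling, 0.71 with centring and 0.01 with quantile normalization. Of its exon sequence, 12.9% overlaps Gemin7 on the other strand.

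Zfp108, a gene of 12 finger patterns on chromosome 7, was the second in level. Its values were 207, 166, 335 and 270 FPKM in NP and 80.8, 42.9, 100.8 and 132 in P. Every NP library was above every P library. The means of 245 ± 73.9 (SD, n = 4) and 89.1 ± 37.4 FPKM gave a log2 fold change of −1.51 ± 0.56 (SE), an adjusted p = 0.420 by limma. Of all genes tested, 12.6% had a lower log2 fold change.

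Zfp277, which brings Polycomb proteins to the Ink4a/Arf locus, varied little among the NP libraries. NP held 127, 171, 150 and 133 FPKM and P held 106, 137, 31.9 and 127. The datasets overlapped, and P2 and P4 lay within the NP range while P1 and P3 lay below it. The log2 fold change was −0.71 ± 0.59 (SE; adjusted p = 0.659 by limma) and became 0.25 with centring. Zfp653, a corepressor of the nuclear receptor Nr5a1, had 166, 107, 50.0 and 66.0 FPKM in NP and 108, 25.3, 10.2 and 397 in P. P4 lay far above the others and made the mean of P the higher one (135 against 97.1 FPKM), while the log2 fold change was −0.56 ± 0.94 (adjusted p = 0.798 by limma), 0.39 with centring and 0.24 without P3.

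Zfp524, whose human counterpart binds telomeric repeats, measured 185, 236, 134 and 43.8 FPKM in NP and 141, 102, 6.89 and 2.69 in P. The P libraries were split, P1 and P2 within the NP range and P3 and P4 far below it. Its log2 fold change was −2.32 ± 1.07 (SE; adjusted p = 0.497 by limma), and 51.6% of its exon sequence overlaps Fiz1 or Gm44973, from which it cannot be fully separated. Without P4 its log2 fold change was −1.39, and its unadjusted p was below 0.05 in only 6 of the 14 alternatives. Zfp957 had 29.8, 81.1, 136 and 41.8 FPKM in NP and 49.1, 88.1, 261 and 26.2 in P. The highest library was P3 and the lowest P4, so the values overlapped entirely (log2 fold change 0.28 ± 0.76, adjusted p = 0.883 by limma), and the sign turned without NP1 (−0.06) or P3 (−0.32).

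Zfp828, now named Champ1, encodes a protein needed for the attachment of kinetochores to spindle microtubules. It measured 30.4, 25.9, 53.05 and 36.1 FPKM in NP and 89.8, 134, 294 and 20.9 in P. In 3 of the 4 P libraries it was above all NP libraries, and P4 was below them. The mean was 36.4 ± 11.9 (SD, n = 4) in NP and 135 ± 116 in P, and the log2 fold change was 1.39 ± 0.75 (SE; adjusted p = 0.535 by limma). Only 1.51% of all genes tested had a higher log2 fold change, although for Zfp828 itself the difference did not pass the test. The value rested on single P libraries, being 0.84 without P3 and 2.09 without P4, and it was 2.35 with centring and 1.75 with quantile normalization. Without P4 and with either scaling its unadjusted p was below 0.05, still with no adjusted p below 0.1.

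The rule for differences named 5 genes, all higher in NP, that combined an unadjusted p below 0.05 with datasets that did not overlap: Zfp414, Zfp652, Zfp526, Zfp574 and Zfp108. They stand near the top of the plot of values by library. None of them passed the adjusted threshold, and in all 5 the log2 fold change was also below 0 with quantile normalization, with centring and without any single library. Centring brought the values nearer to 0, at −2.53 for Zfp414, −1.69 for Zfp652, −1.015 for Zfp526, −0.79 for Zfp574 and −0.55 for Zfp108, and only Zfp414 then had an unadjusted p below 0.05. Zfp414 kept it in all 14 alternatives and Zfp652 in 13. Zfp108 lost it without P2, and Zfp574 without NP2, NP4 or P4 and with quantile normalization. Zfp526 lost it in 9 of the 14 alternatives, among them leaving out any library other than NP1 or P1. Zfp414, Zfp652 and Zfp526 had a mean above 5 FPKM in NP only, so they were included through the dataset in which they were high. Zfp574 and Zfp108 had a mean above 5 in both datasets.

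**Figure D4:**
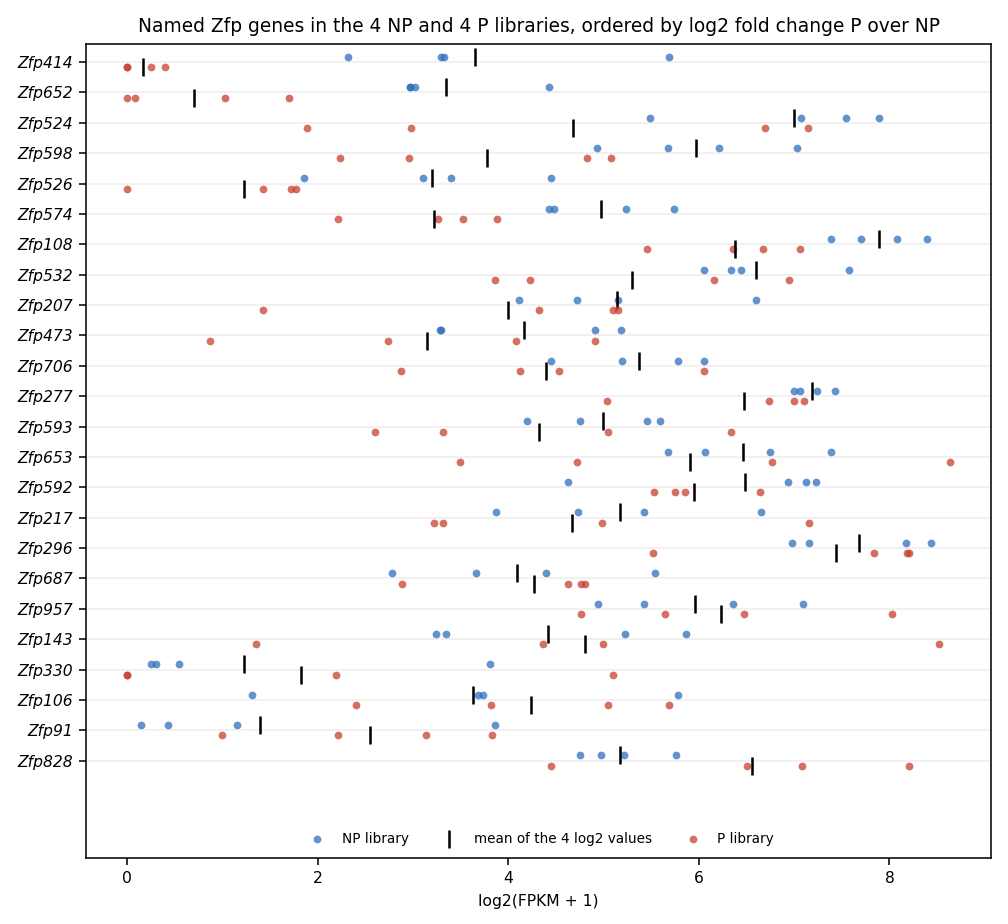
Values of the 24 named Zfp genes as log2(FPKM + 1) in the 4 NP (blue) and 4 P (red) libraries, ordered by log2 fold change from lowest (top) to highest (bottom), with vertical ticks at the mean of each dataset. The NP and P points are apart for Zfp414, Zfp652, Zfp526, Zfp574 and Zfp108 and overlap for the other genes.

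Zfp414 showed the lowest log2 fold change of the 99 genes. It was at 8.76, 9.003, 3.98 and 50.5 FPKM in NP and at 0, 0.317, 0 and 0.190 in P. All NP libraries were above all P libraries, in which the transcript was near or at 0. The log2 fold change was −3.49 ± 0.89 (SE; adjusted p = 0.376 by limma), and 0.364% of all genes tested had a lower one. Its exons overlap Gm20507 on the same strand over 30.4% of their length. Of its longest transcript, 45.7% is nearly identical to transcripts of the same Gm20507, so the reads cannot be fully assigned.

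Zfp652, a repressor that acts with the corepressor Cbfa2t3, measured 6.82, 6.83, 7.09 and 20.5 FPKM in NP and 0.0551, 1.03, 2.24 and 0 in P. NP1 to NP3 were nearly equal, NP4 was the highest, and P was lower in every library. Counted in steps, the gene rested on 336, 137, 797 and 2401 in NP and 4, 51, 154 and 0 in P. The log2 fold change of −2.64 ± 0.85 (SE; adjusted p = 0.405 by limma) was undercut by 1.78% of the genes tested, and 19.97% of the exon sequence overlaps other genes.

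Zfp526 and Zfp574 are neighbours on chromosome 7 and together span 150 kb. Zfp574, with 18 finger patterns, measured 21.3, 52.3, 20.6 and 36.5 FPKM in NP and 8.59, 10.5, 13.7 and 3.61 in P. Zfp526, with 13 finger patterns, was at 2.62, 7.57, 20.9 and 9.50 FPKM in NP and at 2.28, 2.42, 1.68 and 0 in P. For Zfp526 the lowest NP and the highest P libraries almost touched, whereas for Zfp574 a wider gap separated them. Their log2 fold changes were −1.97 ± 0.90 and −1.75 ± 0.70 (SE), with an adjusted p = 0.495 and an adjusted p = 0.446 by limma.

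The other 3 genes without overlap, Zfp111, Zfp84 and Zfp553, fall outside the naming rule and were chosen after their values were seen. Zfp111 measured 8.29, 8.48, 10.0 and 9.69 FPKM in NP and 2.35, 2.43, 2.97 and 1.21 in P. Both datasets were tight, each spanning less than 2 FPKM, and NP was clearly the higher one. The log2 fold change was −1.67 ± 0.78 (SE; adjusted p = 0.504 by limma), and in steps the gene rested on 269, 112, 741 and 748 in NP and 112, 79, 134 and 33 in P. Zfp84 and Zfp553 had log2 fold changes of −1.47 ± 0.88 and −0.93 ± 0.70 (adjusted p = 0.572 by limma and adjusted p = 0.644). Zfp111 and Zfp84 had a mean above 5 FPKM in NP only, so they too were included through the dataset in which they were high.

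The remaining genes with an unadjusted limma p below 0.05 and overlapping datasets were Zfp598 and Zfp524, which the rule named, and Zfp282, Zfp639, Zfp61, Zfp180 and Zfp68, which were chosen after their values were seen. Zfp282 had a log2 fold change of −3.30 ± 0.99 (SE) and overlapped only through P1, at 18.3 FPKM against 12.9 to 119 in NP. Zfp639 (−2.55 ± 0.89) was at 22.1, 7.39, 10.8 and 1.45 FPKM in NP and at or below 1.70 in P. Zfp639 and Zfp180 had a mean above 5 FPKM in NP only, so they were included through the dataset in which they were high. For Zfp68, a KRAB gene, NP4 reached 451 FPKM against 23.1 to 77.8 in the other NP libraries and 6.14 to 27.0 in P.

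Of 13 listed RNA and ribosome proteins, 6 were expressed, with a median log2 fold change of −0.82. Of these 6, 1 (16.7%), Zfp598, had an unadjusted p below 0.05 towards NP, against 10.8% of all genes with a mean above 5. Zfp598 encodes the ubiquitin ligase that marks collided ribosomes. It measured 29.5, 73.3, 50.3 and 130 FPKM in NP and 32.6, 6.74, 3.70 and 27.4 in P. NP was the higher dataset apart from an overlap of NP1 with P1, and the means of 70.8 ± 43.4 (SD, n = 4) and 17.6 ± 14.5 FPKM differed 4.02-fold. The log2 fold change was −2.19 ± 0.79 (SE; adjusted p = 0.416 by limma), and 4.23% of all genes had a lower one.

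Zfp593, a factor of the maturing large ribosomal subunit, measured 17.3, 42.8, 25.9 and 47.2 FPKM in NP and 8.97, 80.1, 5.06 and 32.0 in P. The datasets overlapped (log2 fold change −0.67 ± 0.83, adjusted p = 0.745 by limma, and 0.29 with centring), and 77.9% of the exon sequence lies opposite E130218I03Rik. Zfp473, which binds the U7 snRNP in the processing of histone mRNA ends, was at 28.9, 8.74, 35.3 and 8.78 FPKM in NP and at 15.9, 29.1, 0.8293 and 5.66 in P. Neither gene separated NP from P, the log2 fold change of Zfp473 being −1.02 ± 0.94 (adjusted p = 0.681 by limma).

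Zfp106, an RNA binding protein required by motor neurons, had 12.3, 1.48, 11.9 and 53.9 FPKM in NP and 13.1, 50.4, 32.0 and 4.26 in P. Its datasets overlapped throughout, and the log2 fold change of 0.61 ± 0.99 (SE; adjusted p = 0.796 by limma) became −0.16 without NP2. Of its exon sequence, 26.1% lies opposite Gm26899. Zfp330, a nucleolar protein, was at 13.04 FPKM in NP3 and at 0.187 to 0.459 in the other NP libraries, and at 33.2 in P3, 3.56 in P1 and 0 in P2 and P4. Replicate 3 thus held nearly all of the signal in both datasets, and the log2 fold change of 0.59 ± 1.19 (SE; adjusted p = 0.834 by limma) became −0.50 without P3. The mean of Zfp330 was above 5 FPKM in P only. Zfp706, a small protein of 76 residues, measured 54.0, 35.6, 20.9 and 65.2 FPKM in NP and 22.2, 16.5, 6.32 and 65.3 in P, with a log2 fold change of −0.97 ± 0.75 (adjusted p = 0.647 by limma).

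Of 3 listed ubiquitin and SUMO ligases, 2 were expressed, Zfp598 and Zfp91. Zfp91, a ligase for the kinase NIK, was at 0.343, 1.23, 13.5 and 0.105 FPKM in NP and at 3.64, 7.79, 0.985 and 13.2 in P. Its mean was above 5 FPKM in P only, so it was included through the dataset in which it was high. The P libraries were mostly the higher ones, but NP3 was as high as P4 (log2 fold change 1.15 ± 1.03, adjusted p = 0.674 by limma), and without NP3 the log2 fold change was 1.97. Zfp207, the spindle protein BuGZ that delivers Bub3 to kinetochores, measured 96.1, 25.3, 34.5 and 16.3 FPKM in NP and 34.5, 33.4, 18.95 and 1.68 in P. NP1 stood above and P4 below the rest, which overlapped, and the log2 fold change was −1.15 ± 0.89 (adjusted p = 0.649 by limma). It was −0.29 without P4, −0.66 without NP1 and −0.19 with centring.

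Of 25 listed members of general promoter and chromatin complexes, 11 were expressed, with a median log2 fold change of −0.54. They include Zfp592, Zfp687 and Zfp532, which associate with one another and with Zmynd8. Zfp592 measured 121, 149, 139 and 23.7 FPKM in NP and 52.9, 56.8, 45.3 and 98.65 in P. Zfp532 was at 85.7, 80.1, 190 and 65.5 FPKM in NP and at 17.7, 70.5, 122 and 13.5 in P. Zfp687 was less abundant, at 45.6, 20.04, 11.6 and 5.84 FPKM in NP and 27.0, 26.2, 6.39 and 23.7 in P. The 3 genes overlapped between datasets, with log2 fold changes of −0.54 ± 0.67, −1.30 ± 0.75 and 0.18 ± 0.79 (SE; adjusted p = 0.746, adjusted p = 0.556 and adjusted p = 0.927 by limma), and of these only that of Zfp532 kept its sign under both scalings and without any single library, ranging from −0.35 with centring to −1.85 without P3. Of the exon sequence of Zfp532, 28.7% lies opposite other transcripts.

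Zfp143, an activator bound at many promoters, was at 9.15, 8.43, 57.5 and 36.3 FPKM in NP and at 19.6, 1.55, 30.8 and 366 in P. P4 alone raised the mean of P to 105 FPKM against 27.8 in NP, and the log2 fold change of 0.39 ± 1.21 (SE; adjusted p = 0.896 by limma) was −0.85 without it. Zfp217, a component of CoREST repressor complexes, measured 25.6, 41.9, 99.6 and 13.7 FPKM in NP and 8.32, 8.94, 141 and 30.7 in P. Replicate 3 was the highest library of both datasets, and the log2 fold change was −0.50 ± 0.91 (adjusted p = 0.818 by limma) and 0.46 with centring.

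The structure of the encoded proteins was read from the longest RefSeq protein of each gene. The 99 proteins spanned 76 to 2246 residues with a median of 591, and held a median of 9 C2H2 patterns (2 cysteines and 2 histidines at the usual spacing), against 11 in the Zfp genes below the threshold. Zfp142 had the most, 36, and Zfp330, Zfp259 (now Zpr1), Zfp750 and Zfp957 had none. A KRAB pattern was found in 32 of the expressed genes (32.3%) and in 117 of 239 below the threshold with a coding sequence (49.0%), and these shares were 38.4% and 52.7% with a looser pattern chosen after seeing the data. The KRAB genes held more fingers than the rest, a median of 12.5 against 7.

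Genes with a KRAB pattern had a median log2 fold change of −0.30 and those without of −0.58. The first value depended on the pattern, being −0.15 for the 30 genes of a stricter and −0.34 for the 38 genes of a looser one. Each pattern required a tryptophan at its start, so any KRAB box without it was counted as absent. Zfp282 matched only the looser pattern, with which 2 genes had an unadjusted limma p below 0.05. Of the 32 KRAB genes, 14 were above 0 and 18 below, 9 were more than 2-fold higher in P and 8 in NP, and 1, Zfp68, had an unadjusted limma p below 0.05. Of the other 67, 16 were above 0 and 51 below, 6 were more than 2-fold higher in P and 19 in NP, and 11 had an unadjusted p below 0.05. As shares, 28.1% of the KRAB and 8.96% of the other genes were over 2-fold higher in P, against 14.2% of genes with a mean above 5. Towards NP these shares were 25% and 28.4%, against 27.3%. An unadjusted limma p below 0.05 towards NP was found in 3.1% and 16.4%, against 10.8%. Among the KRAB genes over 2-fold higher in P, Zfp954, Zfp568, Zfp141, Zfp746 and Zfp345 had a mean above 5 FPKM in P only. Among the others at an unadjusted p below 0.05, Zfp414, Zfp652, Zfp526, Zfp639 and Zfp180 had it in NP only. These genes were included through the dataset in which they were high. A single library gave 80.3% (Zfp954), 75.4% (Zfp141) and 63.2% (Zfp345) of the summed FPKM. The difference between the 2 kinds was not tested. The quartiles of the KRAB genes (−1.10 to 0.54) and of the others (−1.50 to −0.09) overlapped. Among the KRAB genes, Zfp568, which silences placental transcription of Igf2 and was named after its values were seen, was at 3.45, 4.07, 5.81 and 0.898 FPKM in NP and at 12.5, 0.695, 8.89 and 23.7 in P. Its mean was above 5 FPKM in P only, so it was included through the dataset in which it was high. It was higher in 3 of the 4 P libraries than in any NP library, with a log2 fold change of 1.07 ± 0.98 (SE; adjusted p = 0.681 by limma).

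By number of fingers the median log2 fold changes were −0.63 for 0 to 4 patterns (20 genes), −0.50 for 5 to 9 (35 genes), −0.51 for 10 to 14 (26 genes) and −0.77 for 15 or more (18 genes). In the last group 16 of 18 were below 0, which is 88.9% against 70.1% of all genes with a mean above 5. Of the 18, 0 were more than 2-fold higher in P, against 14.2% of all genes with a mean above 5. The level of this group was also the lowest, a median of 7.06 FPKM against 32.5 with 0 to 4 patterns. The plot of fold change by finger number shows this last group running from −1.75 to 0.23, against −3.49 to 1.39 for the genes with 0 to 4 patterns.

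**Figure D5:**
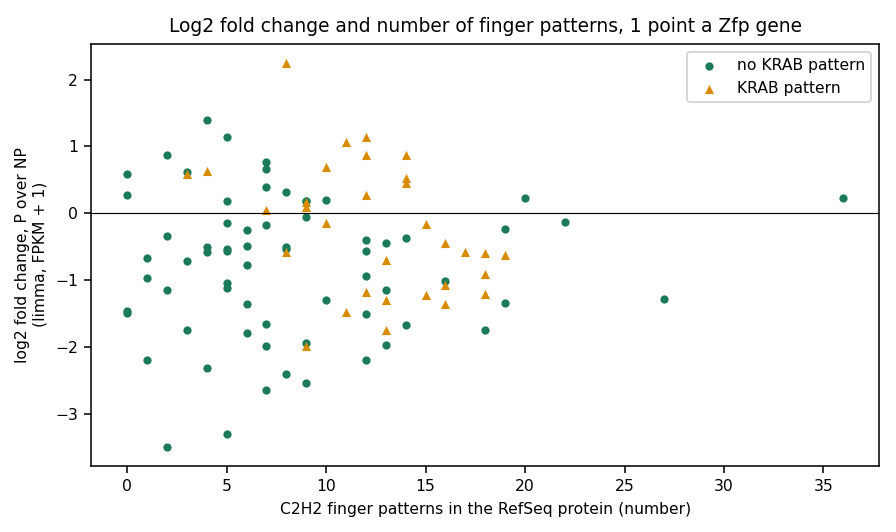
Log2 fold change of P over NP (limma on FPKM + 1) against the number of C2H2 patterns in the RefSeq protein, 1 point per Zfp gene, triangles for the 32 genes with a KRAB pattern. The values spread from −3.49 to 2.25, and 16 of the 18 genes with 15 or more patterns lie below 0.

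Among the KRAB corepressor genes, no difference passed the thresholds. Of 20 listed, 19 were found, with 20 rows because Atf7ip has 2, and 19 rows were tested. Their median log2 fold change was 0.05, 0 had an unadjusted limma p below 0.05 or an adjusted p below 0.1, and the lowest adjusted p was 0.535. Of all genes tested, 9.47% had an unadjusted limma p below 0.05 towards NP and 0.476% towards P. Trim28 measured 110, 108, 40.8 and 53.8 FPKM in NP and 228, 41.0, 46.4 and 77.7 in P. Setdb1 was at 50.4, 39.9, 143 and 32.0 FPKM in NP and 94.6, 62.8, 94.1 and 81.1 in P. Both genes overlapped between the datasets, with log2 fold changes of 0.09 ± 0.67 and 0.56 ± 0.61 (SE; adjusted p = 0.957 and adjusted p = 0.713 by limma).

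Compared with other zinc finger families above 5 FPKM, the median of the Zfp genes was neither the lowest nor the highest. The families were formed by listed symbol. Zfp295 (−1.36) and Zfp238 (−0.51), now named Zbtb21 and Zbtb18, were therefore counted as Zfp and not as Zbtb genes. The median log2 fold change was −0.76 for 16 Zbtb genes, which join a BTB domain to C2H2 fingers, −0.94 for 9 Zscan and Zkscan genes, which carry a SCAN domain, 0.08 for 6 Klf and Sp genes, which bind GC boxes, and −0.30 for 41 genes with fingers of other kinds. Their unadjusted limma p was below 0.05 towards NP in 1, 0, 0 and 2 genes (6.25%, 0%, 0% and 4.88%), against 10.8% of all genes with a mean above 5. Towards P it was below 0.05 in 0 genes of any of the 4 families, against 0.71%. No adjusted p was below 0.1. Differences between the families were not tested.

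The genes were unevenly placed in the genome. Chromosome 7 held 29 of the 99 (29.3%), as it did 25.3% of all Zfp rows, compared with 7.22% of all genes with a mean above 5, and chromosome 8 held 13. The 29 genes of chromosome 7 had a median log2 fold change of −1.02, against −0.51 for the other 70 genes. On chromosome 7, 6 genes (20.7%) had an unadjusted p below 0.05 and 6 (20.7%) had datasets that did not overlap. The other 70 held 6 (8.57%) and 2 (2.86%). Among all genes with a mean above 5, these shares towards NP were 10.8% and 6.02%. This split was seen after the values were known and was not tested. In all, 32 genes had another expressed Zfp gene within 500 kb, in 11 groups, of which 5 held log2 fold changes of both signs before any centring.

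The 5 genes at chr7:24081924-24301232 (GRCm38), Zfp180, Zfp111, Zfp109, Zfp108 and Zfp61, span 219 kb and had log2 fold changes of −2.41 to −0.56, all below 0 before any centring. Of all genes with a mean above 5, 70.1% were below 0. Centring moved the median of all genes tested from −0.39 to 0.57, and every gene alike. Levels of the 5 genes differed widely, with means over the 8 libraries between 5.68 FPKM for Zfp111 and 167 for Zfp108. Zfp109, named after its values were seen and so like Zfp111 in the finger shown above, was at 8.58, 25.5, 59.0 and 8.71 FPKM in NP and at 10.7, 4.84, 23.1 and 17.95 in P. Its datasets overlapped (log2 fold change −0.56 ± 0.81, adjusted p = 0.775 by limma), whereas those of Zfp108 and Zfp111 did not. On chromosome 6, the 5 genes Zfp398, Zfp282, Zfp212, Zfp956 and Zfp746 lay within 251 kb and ran from −3.30 for Zfp282 to 0.64 for Zfp212, so that neighbouring genes took both signs.

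Exon sequence shared with other genes limited some values. In 20 of the 99 genes, 10% or more of the exon sequence overlapped another gene or was nearly identical to one, and the sources used here do not say whether the counting used the strand. The 79 other genes had a median log2 fold change of −0.57, with 9 higher in NP at an unadjusted p below 0.05 and 0 higher in P, close to the values of all 99. Exons of Zfp784 and Zfp865 overlap on opposite strands, so their values may share reads and cannot be fully separated. The values still differed, at 0.290 FPKM for Zfp784 and 65.3 for Zfp865 in P2. In P4 they were 21.7 and 3.57 FPKM.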

How the data were processed

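RNA-seq was analysed for 4 NP and 4 P libraries of NEBD-stage mouse oocytes, grouped by their titles. Ribosomal RNA was removed, and cDNA primed with oligo(dT) and random primers was amplified before Nextera library preparation. The authors used Trim Galore 0.4.1 for trimming, FastQC 0.11.5 for quality, Hisat2 2.0.5 for alignment to GRCm38 and Seqmonk for quantification, and deposited linear FPKM values for each library. The FPKM columns that pool the 4 libraries of a dataset, the authors' expressed-gene table and their DESeq2 table, which holds fold changes and p-values, were not used.

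The 14292 genes whose mean exceeded 0.1 FPKM in NP or P were tested with limma 3.58.1 in R 4.3.3 (lmFit, eBayes with a trend) on log2(FPKM + 1), P minus NP, 2-sided, with Benjamini-Hochberg adjustment over all genes and a threshold of 0.1. Fold changes on this scale understate the change of low genes. Ratios of means had 0.0001 added. The script was tested on simulated data. The methods describe 4 independent profiles, each divided into an NP and a P pool, so NP and P libraries share oocytes, but no source ties an equal number to 1 profile. Library scaling was recovered from FPKM steps, 49.0% to 50.5% of values being whole within 0.01, and all 8 libraries gave whole steps for 38 of the 99 genes. Since whole steps were found for too few genes, no count test was run.

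Exon lengths and overlaps came from GENCODE M21, and near identity (98% over 100 bp) from blastn 2.17.0. Finger and KRAB patterns were searched in translated RefSeq coding sequences of GRCm38.p6, which matched 95 genes by symbol and 4 by a newer symbol.

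The genes, lists and tests were chosen with earlier results of these data known. Named genes were the 8 with the highest mean, up to 10 per direction with an unadjusted p below 0.05 and no overlap, and the members of the RNA and ribosome, ubiquitin and SUMO, and spindle lists plus the 6 most abundant of the promoter and chromatin list (24 genes in all), with Trim28, Setdb1 and any corepressor gene at an unadjusted p below 0.05. Alternatives changed the pseudocount, filter, scaling, threshold and patterns, left out each library, or added a replicate block.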

Additional observations from a re-analysis of the deposited data

Results flagged for a closer look

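In 9 of 54 sets of 4 libraries tested (48 of a named gene in 1 dataset and 6 of a summary over the Zfp genes), a single library stood apart from the other 3 beyond Dixon's 95% critical ratio. For normally distributed values, about 1 in 20 such groups is marked by chance. For the named genes the ratio was taken on linear FPKM, for which this rate was not checked. Zfp414 was at 50.5 FPKM in NP4, against 3.98 to 9.003 in the other NP libraries. Zfp652 was at 20.5 FPKM in NP4, against 6.82 to 7.09. NP3 held Zfp330 at 13.04 FPKM (0.187 to 0.459 in the others), Zfp91 at 13.5 (0.105 to 1.23) and Zfp532 at 190 (65.5 to 85.7). P3 held Zfp330 at 33.2 FPKM (0 to 3.56 in the others), Zfp217 at 141 (8.32 to 30.7) and, as the only low value, Zfp687 at 6.39 (23.7 to 27.0). P4 held Zfp143 at 366 FPKM, against 1.55 to 30.8 in the other P libraries. For Zfp414 and Zfp652 the remaining 3 NP libraries were also above all P libraries.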

How the results depend on the processing

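No Zfp gene passed an adjusted p of 0.1 under any of the 14 alternatives. Centring each library on its median gave 2 genes higher in NP and 6 higher in P at an unadjusted p below 0.05, 2 and 5 without overlap, 12 and 45 over 2-fold, and a median log2 fold change of 0.39. Quantile normalization gave 6 and 1 genes at an unadjusted p below 0.05, 4 with NP above P, 27 over 2-fold in P and a median of −0.043. Leaving out 1 library gave 8 to 15 genes higher in NP and 0 to 2 higher in P (1 without P2, 2 without P4) at an unadjusted p below 0.05, 8 to 14 with NP above P (13 without NP1, 14 without P1), 0 to 1 with P above NP (1 without P2 or P4), and 12 to 24 over 2-fold in P (24 without NP3). Of all genes tested, 7.51% to 10.9% were then higher in NP and 0.25% to 1.14% higher in P at an unadjusted p below 0.05. With fewer libraries, less is needed for datasets not to overlap. A minimum mean of 1 or 10 FPKM kept 184 or 62 genes.

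Of 336 values of named genes, 318 kept their direction, 18 reversed, and 13 of 24 genes had no reversal. Since no adjusted p passed in any setting, that threshold does not bear on stability. At an unadjusted p of 0.05, 34 of the 336 values changed side, and of the 7 named genes below it 1 stayed there with centring and 4 with quantile normalization. With centring, the log2 fold changes of Zfp296 (0.71), Zfp277 (0.25), Zfp653 (0.39), Zfp592 (0.42), Zfp593 (0.29) and Zfp217 (0.46) reversed, and with quantile normalization that of Zfp296 (0.012). Without single libraries, the values ranged from −1.48 to 0.24 for Zfp653 (above 0 without P3), from −0.32 to 0.76 for Zfp957 (−0.06 without NP1, −0.32 without P3), from −0.16 to 1.33 for Zfp106 (−0.16 without NP2), from −0.50 to 1.46 for Zfp330 (−0.50 without P3), from −0.85 to 1.54 for Zfp143 (−0.0031 without NP2, −0.85 without P4), from −0.26 to 0.66 for Zfp687 (−0.26 without NP4, −0.0011 without P1) and from −0.50 to 0.39 for Zfp296 (0.0023 without NP2, 0.39 without P4). Beyond the construction of each alternative, the cause was not tested.

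With the replicate block, 13 genes were higher in NP at an unadjusted p below 0.05, against 11.3% of all genes tested. The adjusted threshold was passed by 0 genes. Zfp526 no longer and Zfp532 now had an unadjusted p below 0.05. NP and P pools came from shared profiles, but the labels do not tie equal numbers to 1 gradient. Over 11374 genes, correlations of deviations from the group means were 0.139, 0.0518, 0.251 and 0.155 between equal numbers and −0.135 to 0.136 otherwise. Each P library correlated best with the NP library of its own number, and so did NP1, NP3 and NP4 with P, whereas NP2 correlated best with P1.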
